A study of Mus musculus with 3 samples.

Results

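The genes described here are 34 imprinted genes of the mouse that lie outside the insulin-like growth factor axis, read in sorted embryonic stem cell progeny after induction of Snail. They were chosen by name from textbook knowledge of mouse imprinting, with earlier results of these data known. The rule itself uses no measured value. Of the 34 genes, 32 had a probe set annotated to that gene alone, among 18193 genes with such a probe set on the array. H19 and Zrsr1 had none and have no value here. Each gene was read through its probe set with the highest mean. Of the 32 genes, 22 stood at or above the floor on all 3 arrays, 7 only on some arrays, and 3 (Usp29, Rasgrf1 and Nnat) on no array. The floor, taken as the level under which signal is not read as expression, is 25.6 intensity units, or the 40th percentile over the arrays.

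Imprinted genes are expressed mainly from the allele inherited from 1 parent. The parental copies are told apart by DNA methylation laid down at control regions in the egg or the sperm, and silencing follows from that mark directly or through other steps. Most lie in clusters, where a single control region, and often a long non-coding RNA such as Kcnq1ot1, Airn or Meg3, governs paternally and maternally expressed genes together. Several act on growth of the embryo and the placenta, and embryonic stem cells in culture are known to lose or gain methylation at some of these regions. The array reads the RNA of both alleles as a single value, so nothing below says which allele was expressed.

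Gene expression was measured with Affymetrix arrays on total RNA, with 1 array for each of 3 groups. Snail-induced Flk1+ cells and Snail-induced Flk1- cells came from A2.snail mouse embryonic stem cells given 250 ng/mL doxycycline on day 2, which switches on the transcription factor Snail in this line. Untreated Flk1- cells came from A2.snail cells with 0 ng/mL doxycycline. All 3 groups grew as embryoid bodies in 10% FCS with DKK1, an inhibitor of Wnt signalling, seeded at 50000 cells per mL, and were taken at day 3. Groups are named by Flk1, the VEGF receptor that marks early mesoderm with vessel and blood potential; a sort is stated for the Snail-induced groups. The labels do not say whether both Snail-induced fractions came from 1 culture. Neither untreated Flk1+ cells nor cells given doxycycline but lacking the transgene were analysed here, so effects of Snail and of doxycycline cannot be told apart, and comparisons with untreated Flk1- cells that use the Flk1+ array join induction with the sort. With 1 array per group there is no replicate check, no p-value and no error of a difference, and the number of arrays limits the precision. In bulk RNA, fewer cells of a type and less RNA per cell cannot be told apart.

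Differences and folds were taken on log2(intensity + 9.53), with an offset at the 20th percentile over the arrays that makes differences of dim genes look smaller. A gene is called higher or lower at 2-fold or more on this scale with the brighter value at or above the floor. If the dimmer of a pair was below the floor, the brighter intensity divided by the floor, with no offset, is given as at least that many fold. The sort and the induced gene were read first. Kdr, which encodes Flk1, gave 404 in Snail-induced Flk1+ cells, 9.73 in Snail-induced Flk1- cells and 10.5 in untreated Flk1- cells. The single Snai1 probe set gave 19.8, 13.1 and 29.1 in the same order, near or under the floor, and shows nothing about the transgene. Markers of other cell types moved with the groups. Summed over 12 genes each, the naive pluripotency markers gave 7425 in Flk1+ cells, 17967 in Snail-induced Flk1- cells and 15916 in untreated Flk1- cells, and the endothelial and hemangioblast markers 12815, 1267 and 749. Snail is known as a repressor of epithelial genes. In the same order the 10 epithelial markers summed to 1946, 6788 and 17079, and the 10 mesenchymal markers to 22574, 10946 and 5694. The 9 markers of nascent and lateral mesoderm summed to 2568, 698 and 284, with 621, 621 and 991 of the Flk1+ sum from Isl1, Mef2c and Aplnr. Pdgfra and Snai2 were 1.59-fold and 1.42-fold lower in Flk1+ than in Snail-induced Flk1- cells. Mesp1, Tbx6 and Hand1 were called in no comparison, and Foxf1 lay under the floor on all arrays. Markers of cell types that embryoid bodies or feeder layers could add were read too. The 12 fibroblast markers summed to 2126, 2026 and 1755, with Col1a1 and Postn under the floor on all arrays, and Dcn 4.19-fold lower in Flk1+ than in Snail-induced Flk1- cells. In Snail-induced over untreated Flk1- cells Dcn, Pdgfrb and Fbln2 were 2.37-fold, 2.64-fold and 2.26-fold higher. The sums of these lists hide such opposite differences. The 8 trophoblast markers summed to 572, 613 and 592, with Cdx2 and Elf5 under the floor on all arrays. In Flk1+ over Snail-induced Flk1- cells Gata3 and Plac1 of that list were at least 7.70-fold and at least 2.65-fold higher and Tfap2c was 3.03-fold lower. The 10 markers of primitive and visceral endoderm summed to 2499, 1092 and 730, with Afp, Ttr, Apoa1 and Foxa2 under the floor on all arrays. Sox17, a gene of endoderm and of endothelium, gave 1466 of the Flk1+ sum and was 14.0-fold higher than in Snail-induced Flk1- cells, Gata6 was 3.59-fold higher, and Cubn was 4.99-fold lower. The 7 neural markers summed to 1399, 2127 and 1731, with Sox1 2.85-fold lower in Flk1+ than in Snail-induced Flk1- cells and Ncam1 5.70-fold higher in Snail-induced than in untreated Flk1- cells. The part of these cell types in the values of the imprinted genes was not tested.

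**Figure D1:**
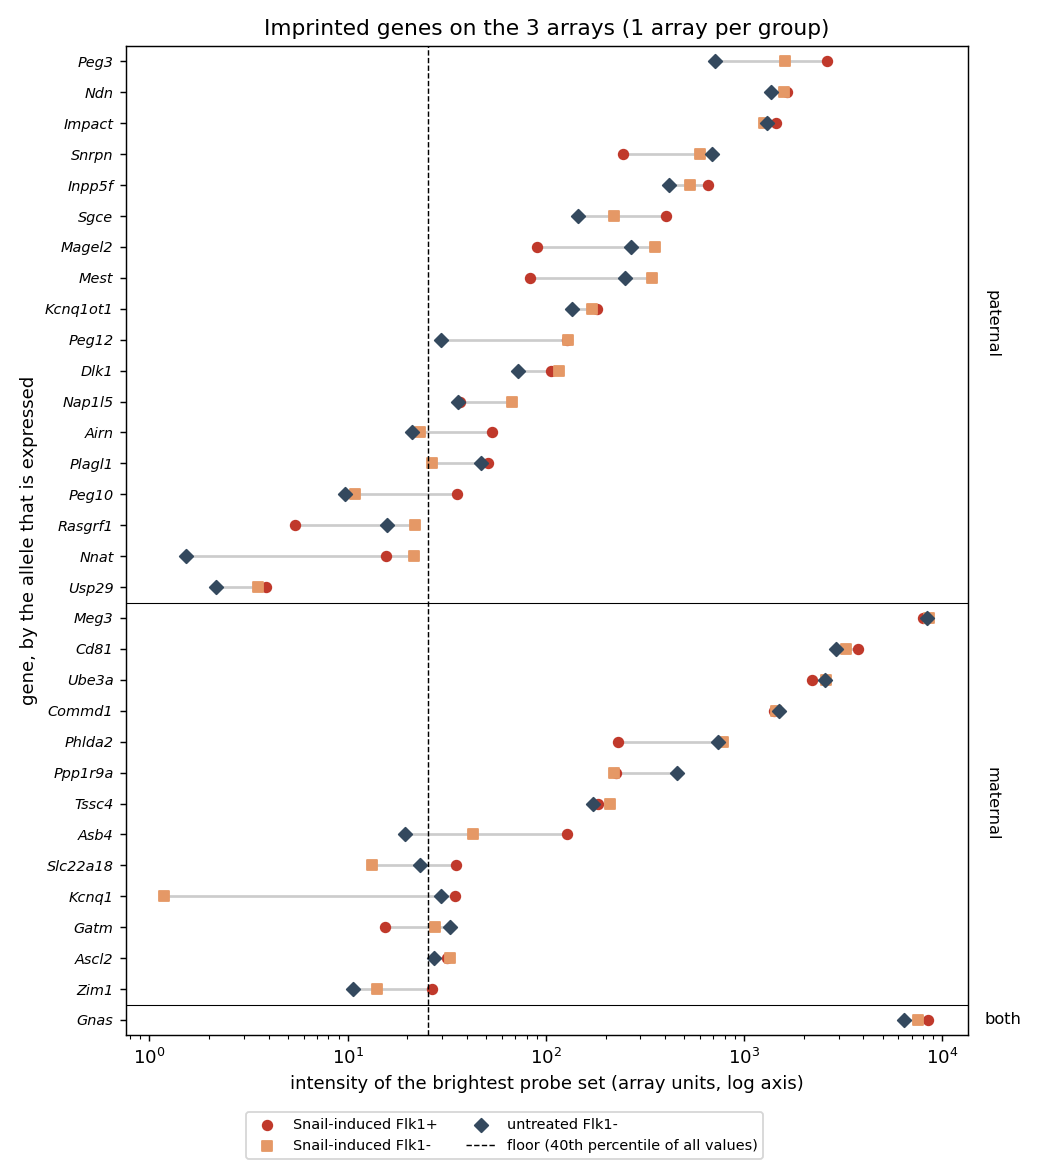
Intensity of the brightest probe set (array units, log axis) of each of the 32 genes in Snail-induced Flk1+ cells (circles), Snail-induced Flk1- cells (squares) and untreated Flk1- cells (diamonds), with 1 array per group and the floor of 25.6 as a dashed line. Peg3 and Asb4 have the Flk1+ array highest (2633 and 128) and the untreated array lowest (712 and 19.6), Mest, Magel2, Snrpn and Phlda2 have the Flk1+ array lowest, and Meg3, Commd1 and Ube3a lie close together. Levels of different genes are read by different probes and are not comparable.

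Among cells that stayed Flk1-, the comparison of Snail-induced with untreated cells asks what differed with induction. Peg3 and Peg12, both paternally expressed, were higher in Snail-induced Flk1- cells, and Ppp1r9a and Kcnq1, both maternally expressed, were lower. The Kcnq1 call stands for at least 1.15-fold lower and was lost with a higher floor or with no offset. With the mean of all probe sets Peg3 and Ppp1r9a fell short of 2-fold, as did Ppp1r9a with a larger offset. These 4 genes are 11.8% of the 34, beside 4.85% of all 13969 measured genes past the same fold (2.88% higher and 1.97% lower). Here and in the comparisons below, shares of the 34 include genes that could not be called, since 29 reached the floor. Shares of all genes count measured genes only. Over the 29 imprinted genes that reached the floor the median log2 difference was 0.20, also 0.20 over all 32, beside 0.04 over all measured genes. Of the 29, 21 lay above 0 and 8 below, as did 7665 and 6302 of all measured genes. These counts depend on scaling: 19 and 10 of the 29 lay above and below 0 with quantile normalisation, and 16 and 13 with each array centred on its median of measured genes.

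Among Snail-induced cells, the Flk1+ against Flk1- comparison asks what differed with the sort. Mest, Magel2, Phlda2 and Snrpn were lower in Flk1+ cells, and Peg10, Asb4 and Kcnq1 were higher. These 7 genes are 20.6% of the 34, beside 9.63% of all measured genes (4.84% higher and 4.79% lower). The median over the 29 genes was 0.06, and 0.04 over all 32, beside 0.00 over all measured genes. The imprinted genes lay on both sides of 0, with 16 above and 13 below, beside 6995 and 6974 of all measured genes.

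Against untreated Flk1- cells, Snail-induced Flk1+ cells had 6 imprinted genes higher (Peg3, Peg12, Asb4, Sgce, Peg10 and Airn) and 4 lower (Mest, Magel2, Snrpn and Phlda2). They are 29.4% of the 34, beside 14.4% of all measured genes (8.08% higher and 6.36% lower). The median was 0.19 over the 29 genes and over all 32, beside 0.01 over all measured genes. This comparison shares both of its arrays with the other comparisons and is their sum on the log2 scale, so it adds no separate evidence. In total 12 genes were called in at least 1 comparison and 17 of the measured genes in none.

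The Peg3 cluster on chromosome 7 holds the paternally expressed Peg3, which encodes a large zinc finger protein, its head-to-head neighbour Usp29, a ubiquitin protease gene, and the maternally expressed zinc finger gene Zim1. Peg3 gave 2633 in Snail-induced Flk1+ cells, 1601 in Snail-induced Flk1- cells and 712 in untreated Flk1- cells. The Flk1+ array was thus highest and the untreated array lowest. Peg3 was 2.23-fold higher in Snail-induced than in untreated Flk1- cells, 1.64-fold higher in Flk1+ than in Snail-induced Flk1- cells, and 3.66-fold higher in Flk1+ than in untreated Flk1- cells. The other 2 Peg3 probe sets above the floor had the same sign in all 3 comparisons, and in Flk1+ over untreated Flk1- cells the 3 probe sets above the floor ranged from 1.87 to 2.73 on the log2 scale. With the mean of all Peg3 probe sets, those under the floor included, the log2 difference in Snail-induced over untreated Flk1- cells was 0.80, short of 2-fold. Usp29 gave 3.86, 3.51 and 2.16 in the same order, under the floor on every array. Zim1 gave 26.7 in Flk1+ cells, just above the floor, against 14.0 in Snail-induced Flk1- cells and 10.6 in untreated Flk1- cells.

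The promoter of Peg3 is shown because the gene had one of the 3 largest differences among imprinted genes with a promoter in the table, the others being Asb4 and Mest. Promoters are RefSeq sequences of the GRCm38.p6 build, 250 bases before to 50 after the start, written 5′ to 3′ on the gene's strand. Capitals mark the hexamers CAGGTG or its reverse complement CACCTG (the E-box that Snail binds) and TGCCGC or its reverse complement GCGGCA (the core bound, when methylated, by the imprint-protecting factor ZFP57).
Peg3 chr7:6730370-6730669, minus strand: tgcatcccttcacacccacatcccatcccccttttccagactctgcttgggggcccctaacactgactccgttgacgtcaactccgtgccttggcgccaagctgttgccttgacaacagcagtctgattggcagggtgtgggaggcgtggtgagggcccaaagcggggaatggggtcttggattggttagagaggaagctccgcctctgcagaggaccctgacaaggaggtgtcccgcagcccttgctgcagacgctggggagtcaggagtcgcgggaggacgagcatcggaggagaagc
The window holds neither hexamer, so it has no capitals, and has 13 CpG dinucleotides. It shares 263 bases with the promoter window of Usp29 on the opposite strand.

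Around Sgce and Peg10 on chromosome 6, the 3 genes Sgce, Peg10 and Asb4 were higher in Flk1+ than in untreated Flk1- cells, while Ppp1r9a was not. Asb4, a maternally expressed gene for a substrate adaptor of ubiquitin ligases that is known in mouse from vascular differentiation in the placenta, gave 128 in Flk1+ cells, 43.0 in Snail-induced Flk1- cells and 19.6 in untreated Flk1- cells. It was 2.61-fold higher in Flk1+ than in Snail-induced Flk1- cells, at least 1.68-fold higher in Snail-induced than in untreated Flk1- cells, and called higher in Flk1+ than in untreated Flk1- cells, where it lay under the floor (log2 difference 2.24). Its second probe set ran the same way, with log2 differences from 1.18 to 2.43 in the 3 comparisons. Asb4 was highest on the Flk1+ array, which had the highest sums of endothelial, mesenchymal, mesoderm, endoderm and fibroblast markers. The part of these cell types in the Asb4 values was not tested.

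Sgce, the paternally expressed gene of epsilon-sarcoglycan, gave 402 in Flk1+ cells, 220 in Snail-induced Flk1- cells and 146 in untreated Flk1- cells. It was 2.65-fold higher in Flk1+ than in untreated Flk1- cells, 1.79-fold higher in Flk1+ than in Snail-induced Flk1- cells, and 1.48-fold higher in Snail-induced than in untreated Flk1- cells. Its second probe set lay under the floor on all arrays, and with the mean of both the log2 difference in Flk1+ over untreated Flk1- cells was 0.43, short of 2-fold. Peg10, the paternally expressed, retrotransposon-derived gene needed for the mouse placenta, gave 35.5 in Flk1+ cells, 10.9 in Snail-induced Flk1- cells and 9.68 in untreated Flk1- cells. Only its Flk1+ value exceeded the floor, so that the call at 2-fold stands for at least 1.39-fold. Ppp1r9a, the gene of the actin-binding protein neurabin I, went the other way: 227 in Flk1+ cells, 221 in Snail-induced Flk1- cells and 461 in untreated Flk1- cells. Both Snail-induced arrays were low. Its difference was 2.04-fold lower in Snail-induced than in untreated Flk1- cells, and its 5 probe sets, all with 1 sign, ranged from -1.07 to -0.38 on the log2 scale, with a mean of -0.87 that falls short of 2-fold. Flk1+ over untreated Flk1- cells gave 1.99-fold lower, just short of 2-fold, with probe sets from -1.40 to -0.46.

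Asb4 has 2 annotated promoters, both with few CpG dinucleotides (6 and 8) and neither hexamer.
Asb4, first start, chr6:5383136-5383435, plus strand: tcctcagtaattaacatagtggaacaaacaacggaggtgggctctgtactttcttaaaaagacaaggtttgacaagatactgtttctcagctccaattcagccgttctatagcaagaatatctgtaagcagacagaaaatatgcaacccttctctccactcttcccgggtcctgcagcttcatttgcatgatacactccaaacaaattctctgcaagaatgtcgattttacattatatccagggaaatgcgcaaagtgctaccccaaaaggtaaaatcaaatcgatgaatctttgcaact
Asb4, second start, chr6:5390160-5390459, plus strand: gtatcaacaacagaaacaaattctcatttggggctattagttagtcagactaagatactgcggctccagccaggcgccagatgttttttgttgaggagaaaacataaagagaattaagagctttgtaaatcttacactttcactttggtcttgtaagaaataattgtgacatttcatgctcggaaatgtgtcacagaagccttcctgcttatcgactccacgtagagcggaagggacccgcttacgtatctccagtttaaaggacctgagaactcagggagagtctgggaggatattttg

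Mest, on chromosome 6 and paternally expressed, encodes an enzyme of the alpha/beta hydrolase fold and was named as a mesoderm-specific transcript. It gave 83.0 in Flk1+ cells, 343 in Snail-induced Flk1- cells and 249 in untreated Flk1- cells. The Flk1+ array alone was low: 3.81-fold lower than Snail-induced Flk1- cells and 2.80-fold lower than untreated Flk1- cells. Snail-induced Flk1- cells were 1.36-fold higher than untreated Flk1- cells. A single probe set read Mest. Its direction in the Flk1+ cells was that of the naive pluripotency markers, of which 8 of 12 were lower and 1 higher in Flk1+ than in Snail-induced Flk1- cells. Of the 10 epithelial markers, 7 were lower and 0 higher there, beside 4.79% of all measured genes lower and 4.84% higher. In Snail-induced over untreated Flk1- cells 9 of the 10 were lower and 0 higher, while Mest was 1.36-fold higher. Of all measured genes 1.97% were lower and 2.88% higher in that comparison. The part of these cell types in the Mest values was not tested.

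Of the 3 promoter windows of Mest in the table, 2 start 3 bases apart, and the first of these is shown with the upstream window. The upstream window holds CACCTG, and the downstream window holds GCGGCA at 2 places, with 17 CpG dinucleotides against 8 upstream.
Mest, upstream start, chr6:30733256-30733555, plus strand: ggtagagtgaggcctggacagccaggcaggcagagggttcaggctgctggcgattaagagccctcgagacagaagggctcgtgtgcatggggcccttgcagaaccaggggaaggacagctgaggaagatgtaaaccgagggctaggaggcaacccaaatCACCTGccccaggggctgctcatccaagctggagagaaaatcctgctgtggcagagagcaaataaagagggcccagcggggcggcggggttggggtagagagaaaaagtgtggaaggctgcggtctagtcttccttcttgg
Mest, downstream start, chr6:30737800-30738099, plus strand: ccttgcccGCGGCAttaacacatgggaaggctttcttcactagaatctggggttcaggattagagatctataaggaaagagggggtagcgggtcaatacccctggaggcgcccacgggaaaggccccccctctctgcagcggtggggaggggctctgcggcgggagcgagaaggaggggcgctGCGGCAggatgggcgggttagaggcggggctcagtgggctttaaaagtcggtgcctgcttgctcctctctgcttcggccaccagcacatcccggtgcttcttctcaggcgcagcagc

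Across the imprinted genes, 29 had 41 promoter windows in the table. The E-box was in 7 of the 41 windows (17.1%), beside 20.2% of all 32851 windows of the same length. The ZFP57 core was in 9 (22.0%), beside 11.6% of all windows. The imprinted genes' windows also held more CpG dinucleotides, a median of 16 beside 7 in all windows, and the hexamer itself contains a CpG. No window of an imprinted gene had the 2 hexamers overlapping. Windows of the same gene are counted separately even where they overlap. Overlapping windows of Gnas each hold the E-box, and overlapping windows of Mest hold the same ZFP57 cores. The shares are thus of windows and not of genes. A match is a string of letters in this window and no evidence of binding.

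The Snrpn to Ube3a region of chromosome 7, the counterpart of the human Prader-Willi and Angelman region, holds 4 paternally expressed genes listed here and the ubiquitin ligase gene Ube3a, whose maternal bias is known from neurons. The paternally expressed genes went different ways. Magel2, a MAGE family gene, gave 90.7 in Flk1+ cells, 354 in Snail-induced Flk1- cells and 269 in untreated Flk1- cells. Flk1+ cells were 3.63-fold lower than Snail-induced Flk1- cells and 2.78-fold lower than untreated Flk1- cells. Snrpn, which encodes a splicing protein, gave 245 in Flk1+ cells, 599 in Snail-induced Flk1- cells and 688 in untreated Flk1- cells by its only probe set annotated to Snrpn alone. It was 2.40-fold and 2.75-fold lower in Flk1+ than in Snail-induced and untreated Flk1- cells. Its 6 further probe sets are annotated to Snurf as well and were not used.

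Peg12, a gene of the Frat family of GSK3-binding proteins, had another pattern: 128 in Flk1+ cells and 130 in Snail-induced Flk1- cells, against 29.7 in untreated Flk1- cells. Both Snail-induced arrays were high, 3.52-fold and 3.55-fold above the untreated array, and differed by 1.01-fold from each other. Ndn, the MAGE family gene of necdin, gave 1644, 1582 and 1371 in Flk1+, Snail-induced Flk1- and untreated Flk1- cells, at most 1.20-fold apart, and its 6 probe sets above the floor lay between 0.16 and 0.39 on the log2 scale in Flk1+ over untreated Flk1- cells. Ube3a gave 2204, 2577 and 2548 in the same order, at most 1.17-fold apart. So Magel2 was lower in Flk1+ cells while its neighbours Ndn and Peg12 were within 1.04-fold between the Snail-induced fractions.

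**Figure D2:**
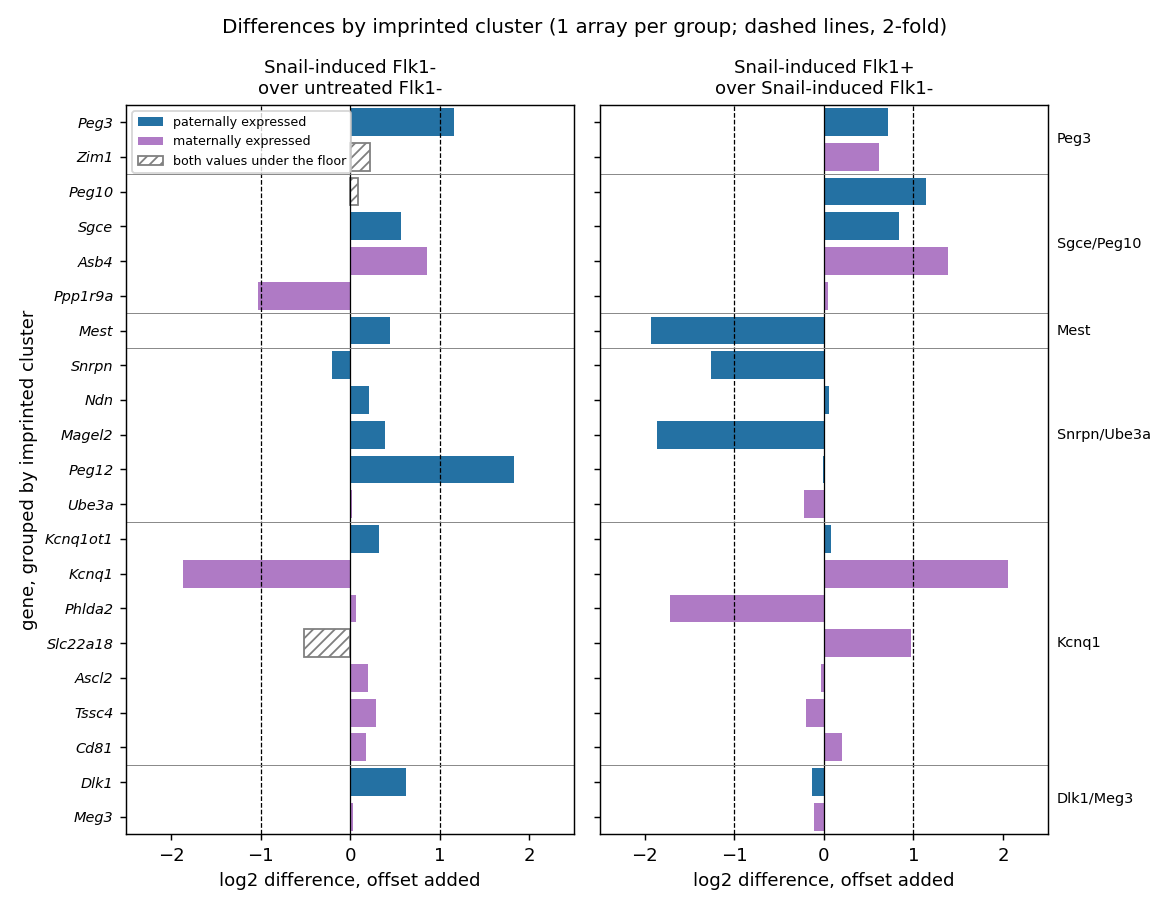
Log2 differences of the measured genes of 6 imprinted regions, Snail-induced Flk1- over untreated Flk1- cells on the left and Snail-induced Flk1+ over Snail-induced Flk1- cells on the right, with paternally expressed genes in blue, maternally expressed genes in purple and pairs with both values under the floor hatched. Dashed lines mark 2-fold. Within the Snrpn to Ube3a region Peg12 stands out on the left (1.83) and Magel2 and Snrpn on the right (-1.86 and -1.26); the panels share the Snail-induced Flk1- array, so a low or high value there moves bars in opposite directions, as for Kcnq1 (-1.86 and 2.05).

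In the Kcnq1 cluster at the distal end of chromosome 7, where the paternally expressed RNA Kcnq1ot1 silences its maternally expressed neighbours in cis, Phlda2 was lower in Flk1+ cells. Phlda2, which encodes a pleckstrin homology protein that restrains placental growth, gave 232 in Flk1+ cells, 781 in Snail-induced Flk1- cells and 743 in untreated Flk1- cells. It was 3.28-fold lower in Flk1+ than in Snail-induced Flk1- cells and 3.12-fold lower than in untreated Flk1- cells, and the Flk1- arrays differed by 1.05-fold. Kcnq1ot1 itself gave 181, 171 and 135 in Flk1+, Snail-induced Flk1- and untreated Flk1- cells. It was 1.32-fold higher in Flk1+ than in untreated Flk1- cells, and its 3 probe sets above the floor lay between 0.40 and 0.94 on the log2 scale.

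Kcnq1, a potassium channel gene, gave 34.9 in Flk1+ cells, 1.19 in Snail-induced Flk1- cells and 29.4 in untreated Flk1- cells by its only probe set. The value of Snail-induced Flk1- cells alone was low, and the other values lay just above the floor. Its calls thus stand for at least 1.37-fold (higher in Flk1+ than in Snail-induced Flk1- cells) and at least 1.15-fold (lower in Snail-induced than in untreated Flk1- cells). Whether the probe sets of Kcnq1 and of Kcnq1ot1, which is antisense to it, read only their own strand was not tested. Slc22a18, a transporter gene, gave 35.4, 13.3 and 23.2 in the same order, above the floor only in Flk1+ cells. The trophoblast transcription factor gene Ascl2 gave 31.8, 32.7 and 27.2, all near the floor. Tssc4 gave 184, 212 and 172, and the tetraspanin gene Cd81 gave 3775, 3283 and 2909, at most 1.22-fold and 1.30-fold apart.

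Dlk1 and Meg3 on chromosome 12, a paternally expressed Notch-ligand-like gene and a maternally expressed non-coding RNA, were not called in any comparison. Meg3 gave 7951, 8612 and 8413 in Flk1+, Snail-induced Flk1- and untreated Flk1- cells by its brightest probe set, at most 1.08-fold apart. Its 11 probe sets above the floor disagreed in sign, from -0.58 to 0.90 on the log2 scale in Snail-induced over untreated Flk1- cells. Dlk1 gave 106, 117 and 72.5 in the same order, 1.41-fold and 1.54-fold above untreated Flk1- cells.

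The remaining genes lie alone or in pairs. Airn, the paternally expressed RNA that silences Igf2r in cis, gave 53.8 in Flk1+ cells, 23.3 in Snail-induced Flk1- cells and 21.2 in untreated Flk1- cells. With the offset, its log2 difference was 0.95 in Flk1+ over Snail-induced Flk1- cells, short of 2-fold, and 1.04 in Flk1+ over untreated Flk1- cells, where it was called. The call over untreated Flk1- cells was lost with centring, the mean of all probe sets, a higher floor or a larger offset. With no offset Airn was also called higher in Flk1+ over Snail-induced Flk1- cells. Both Flk1- values lay under the floor, so each difference stands for at least 2.11-fold higher in Flk1+ cells. Igf2r, which Airn overlaps in antisense, gave 1808, 870 and 777 in the same order. Whether the Airn probe sets read only their own strand was not tested. Nap1l5, a nucleosome assembly protein family gene, gave 36.7, 67.2 and 36.1, with the Snail-induced Flk1- array highest. Plagl1, a zinc finger transcription factor gene, gave 51.0, 26.8 and 47.1, with the Snail-induced Flk1- array lowest. Neither gene exceeded 1.68-fold in any comparison.

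Of the genes left, Gnas, Impact and Commd1 varied little by their brightest probe sets. Gnas, a complex locus that encodes the stimulatory G protein alpha subunit and transcripts of either parental origin, gave 8505, 7557 and 6397 in Flk1+, Snail-induced Flk1- and untreated Flk1- cells, at most 1.33-fold apart. Impact, an inhibitor of the Gcn2 stress kinase pathway, gave 1456, 1266 and 1304. Commd1, known for copper handling, gave 1417, 1447 and 1508. Inpp5f, an inositol phosphatase gene with an imprinted isoform in mouse brain, gave 659, 536 and 416 and was 1.57-fold higher in Flk1+ than in untreated Flk1- cells. Gatm, an enzyme gene of creatine synthesis, gave 15.4, 27.5 and 32.9, under the floor only in Flk1+ cells. Rasgrf1, a Ras exchange factor gene, and Nnat, the neuronatin gene, stayed under the floor with highest values of 21.9 and 21.6.

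**Figure D3:**
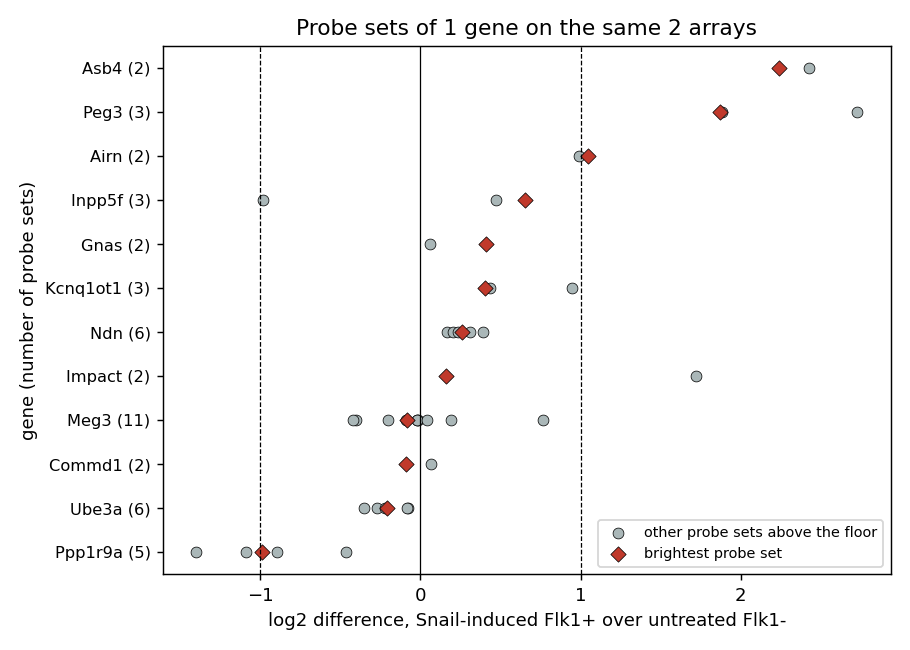
Log2 difference in Snail-induced Flk1+ over untreated Flk1- cells of every probe set above the floor on at least 1 array, for the 12 genes with more than 1 such probe set; diamonds are the brightest probe sets and circles the others, and the number in parentheses counts them. The probe sets of Asb4, Peg3 and Ppp1r9a keep to 1 side of 0, those of Meg3, Inpp5f and Commd1 do not.

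Over these 12 genes, 35 further probe sets could be set beside the brightest. They had its sign in 23 cases in Snail-induced over untreated Flk1- cells, in 25 in Flk1+ over Snail-induced Flk1- cells and in 30 in Flk1+ over untreated Flk1- cells. All read the same RNA on the same arrays, so they are no replicates.

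Paternally and maternally expressed genes were set side by side. In Snail-induced over untreated Flk1- cells, 2 of 19 paternally expressed genes were higher and 0 lower, and 0 of 14 maternally expressed genes were higher and 2 lower. The lower genes are Ppp1r9a and Kcnq1, and the Kcnq1 call stands for at least 1.15-fold. The medians were 0.36 over the 15 paternally and 0.03 over the 13 maternally expressed genes that reached the floor. In Flk1+ over Snail-induced Flk1- cells, 1 paternally expressed gene was higher and 3 lower, with a median of 0.08, and 2 maternally expressed genes were higher and 1 lower, with a median of -0.03. In Flk1+ over untreated Flk1- cells, 5 paternally expressed genes were higher and 3 lower, with a median of 0.40, and 1 maternally expressed gene was higher and 1 lower, with a median of 0.09. Of all measured genes, 2.88%, 4.84% and 8.08% were higher in these comparisons, in the same order, and 1.97%, 4.79% and 6.36% lower. For 7 of the 13 maternally expressed genes the bias is known only in some tissues or isoforms. Without the genes of such limited bias, the paternal and maternal medians were 0.33 and 0.32 in Flk1+ over untreated Flk1- cells and 0.36 and 0.05 in Snail-induced over untreated Flk1- cells. In Flk1+ over Snail-induced Flk1- cells they were 0.07 and 0.80, so the maternal median was then the higher. The maternal median then rests on 6 genes, and 2 of them, Zim1 and Slc22a18, reached the floor only in Flk1+ cells. Kcnq1, also among the 6, lay under the floor in Snail-induced Flk1- cells, at 1.19. No test was run between the classes, and genes of both classes lay on both sides of 0 in every comparison.

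**Figure D4:**
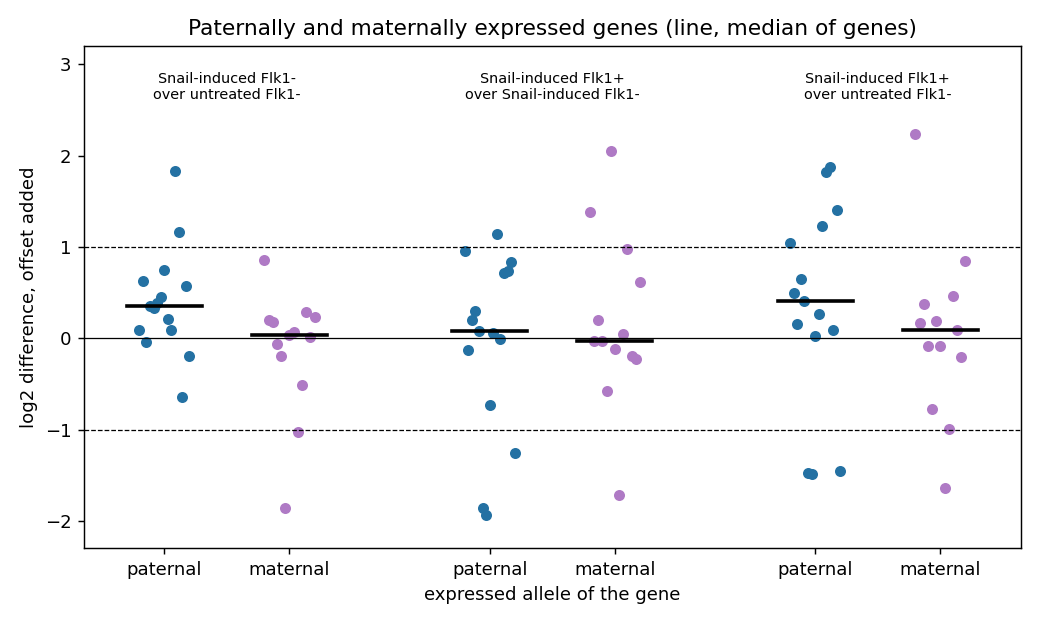
Log2 differences of the 15 paternally (blue, left of each pair) and 13 maternally (purple, right) expressed genes that reached the floor, for the 3 comparisons; each point is a gene, black lines are medians and dashed lines mark 2-fold. The medians are 0.36 and 0.03, 0.08 and -0.03, and 0.40 and 0.09, each far smaller than the range of the genes.

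A wider list of 31 other imprinted genes, which includes those of the insulin-like growth factor axis, had 25 genes with a probe set of their own. In Snail-induced over untreated Flk1- cells 3 were higher and 0 lower, beside 4.85% of all measured genes called. In Flk1+ over Snail-induced Flk1- cells 6 were higher and 2 lower, beside 9.63% of all measured genes. In Flk1+ over untreated Flk1- cells 9 were higher and 2 lower, beside 14.4%. The largest differences in this list were those of Igf2, Ddc, Calcr, Klf14 and Grb10. Igf2, a growth factor gene, gave 3620 in Flk1+ cells, 449 in Snail-induced Flk1- cells and 121 in untreated Flk1- cells. Calcr, the calcitonin receptor gene in the same region of chromosome 6 as Asb4, was 3.30-fold lower in Flk1+ than in Snail-induced Flk1- cells, at 235 and 798, while Asb4 was higher there. Klf14, a transcription factor gene near Mest, was 3.73-fold higher in Flk1+ than in Snail-induced Flk1- cells, at 159 and 35.7, while Mest was lower. Ddc, the gene of aromatic amino acid decarboxylase, and Grb10, a growth-restraining adaptor gene beside it, were 2.45-fold and 2.01-fold higher in the same comparison.

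Of 16 genes that write, protect or erase methylation at imprinted regions, 0 were called in Snail-induced over untreated Flk1- cells. In Flk1+ over Snail-induced Flk1- cells 1 was higher and 2 lower, and in Flk1+ over untreated Flk1- cells 1 was higher and 3 lower. Of all measured genes, 4.85%, 9.63% and 14.4% were called in these comparisons, in the same order. Dnmt3l, a cofactor of the de novo methyltransferases, gave 43.0 in Flk1+ cells, 232 in Snail-induced Flk1- cells and 162 in untreated Flk1- cells. It was 4.60-fold lower in Flk1+ than in Snail-induced Flk1- cells. Zfp42, also a naive pluripotency marker, was 4.03-fold lower, and Tet2, an oxidase of methylcytosine, was 2.81-fold higher in that comparison. Dnmt3b, a de novo methyltransferase gene, gave 4801, 9030 and 10773 in Flk1+, Snail-induced Flk1- and untreated Flk1- cells. Dppa3, which protects maternal methylation in the mouse egg, gave 23.0, 54.9 and 40.5. The maintenance methyltransferase gene Dnmt1 gave 1564, 1260 and 1259, Trim28 gave 7252, 7537 and 7713, and Zfp57, whose protein recruits Trim28 to imprinted regions, gave 66.1, 67.0 and 37.4. Methylation itself was not measured.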

How the data were processed

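Total RNA of 3 cell populations was purified on columns, and labelled for Affymetrix arrays with biotin, per the labels' protocols. The deposited values are 1 linear intensity per probe set and array, from 0.5 to 18191; no source used here gives the summary method, scaling or software. Of 45037 probe sets, 34945 had 1 symbol in the platform annotation, 932 several and 9160 none. Probe sets with 1 symbol were kept, and symbols were brought up to date through Entrez IDs and the RefSeq table of GRCm38.p6 (204 were not in it). Array medians over all probe sets on the log2(intensity + 9.53) scale were 5.76, 5.70 and 5.71 for Snail-induced Flk1+, Snail-induced Flk1- and untreated Flk1- cells, and no further scaling was applied. The alternative of centring used the median of measured genes instead. It moved the log2 difference of Peg3 in Snail-induced over untreated Flk1- cells from 1.16 to 1.06. The brightest probe set on that scale stood for its gene, and 13969 of 18193 genes reached the floor of 25.6 on at least 1 array.

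With 1 array per group no test was run; genes were called by size. All imprinted genes are named, with the 5 measured genes of largest difference from the lists of other imprinted genes and of methylation factors; Igf2r, Dnmt1, Trim28 and Zfp57 were added after their values were seen. The imprinted genes, the lists and the allele classes, which came from textbook knowledge, were chosen with earlier results of these data known. Promoters came from RefSeq. Alternatives were other scalings, probe set rules, floors, offsets and folds. Python 3.11.15, numpy 2.4.6 and pandas 2.3.3 were used.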

Additional observations from a re-analysis of the deposited data

How the results depend on the processing

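No called difference of an imprinted gene changed sign under any alternative run (quantile normalisation, centring of each array, the mean of all probe sets, leaving out probe sets with the _x_at or _s_at suffix, no floor, a floor raised to the 60th percentile, dropping the offset, a larger offset). No paired analysis was possible because each group has 1 array. In Snail-induced over untreated Flk1- cells, the 2 lower genes became 1 with the mean of all probe sets, with the floor at the 60th percentile, with no offset and with the larger offset, and 1 at 3-fold; the 2 higher genes became 5 at 1.5-fold and 1 at 3-fold. In Flk1+ over Snail-induced Flk1- cells, the 3 higher genes became 1 with the floor at the 60th percentile, 9 at 1.5-fold and 1 at 3-fold. In Flk1+ over untreated Flk1- cells, the 6 higher genes became 3 and the 4 lower genes 1 at 3-fold. The maternally expressed median of -0.03 in Flk1+ over Snail-induced Flk1- cells became 0.80 without genes biased only in some tissues or isoforms, but this value is the mid-point of Zim1 and Slc22a18, which lay under the floor in Snail-induced Flk1- cells and whose bounds are at least 1.04-fold and at least 1.38-fold higher in Flk1+ cells. Kcnq1 was not called with the higher floor or with no offset (-0.20 in Snail-induced over untreated Flk1- cells and 0.45 in Flk1+ over Snail-induced Flk1- cells with no offset), and Peg10 with neither of these nor with the larger offset, since each rests on dim values. In Flk1+ over untreated Flk1- cells Airn was not called with centring, the mean of all probe sets, the higher floor or the larger offset. With no offset it was also called higher in Flk1+ over Snail-induced Flk1- cells. With the mean of all probe sets, which averages in probe sets under the floor, Peg3 and Ppp1r9a in Snail-induced over untreated Flk1- cells and Sgce in Flk1+ over untreated Flk1- cells fell short of 2-fold; the log2 difference of Sgce was 0.43, while Asb4 was called higher in Snail-induced over untreated Flk1- cells. Ppp1r9a was called lower in Flk1+ over untreated Flk1- cells with quantile normalisation, centring or no offset. Centring gave 305 higher and 388 lower genes of all genes in Snail-induced over untreated Flk1- cells, 44.0% of calls higher against 59.4% as deposited, while the imprinted genes stayed at 50% higher; the median of the imprinted genes in that comparison was 0.10 for the same 29 genes with centring, and 0.26 for the 20 genes above the floor at the 60th percentile. The number of arrays and the dim signal of genes near the floor limit all values.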

Other observations

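Some further probe sets of the imprinted genes differed from the brightest probe set of the same gene; these were picked after their values were seen. The second Impact probe set above the floor gave 54.1 in Snail-induced Flk1+ cells and 44.7 in Snail-induced Flk1- cells, against 9.79 in untreated Flk1- cells, while the brightest gave 1456, 1266 and 1304. An Inpp5f probe set gave 13.8, 26.3 and 36.5 in the same order, opposite to the 659, 536 and 416 of the brightest. A Meg3 probe set gave 130, 144 and 72.7, where the brightest stayed within 1.08-fold. What part of each transcript these probe sets read is not known here.

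The 29 measured imprinted genes fell into all 6 possible orders of the 3 arrays. For 11 genes the order was Flk1+ highest, then Snail-induced Flk1-, then untreated Flk1- cells; among the called genes these were Peg3, Sgce, Asb4, Peg10 and Airn. For 5 genes the Snail-induced Flk1- array was highest and the Flk1+ array lowest, among them Mest, Magel2 and Phlda2. The other 13 genes were spread over the remaining 4 orders, with 5, 4, 3 and 1 genes. How all measured genes spread over these orders was not counted, so nothing here is particular to imprinted genes. Several orders rest on small gaps, as for Ndn (1.20-fold from highest to lowest), or on values under the floor, as for Zim1 and Peg10.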
